A study of Mus musculus with 32 samples.

Results

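Fabp1 encodes liver fatty acid binding protein, and its messenger RNA is described here in every library of a study of mouse intestinal stem cells. It is 1 of 54418 genes in the deposited count table and 1 of 5872 that had enough counts to be tested. The gene is taken to have been chosen by its level in wild-type cells, which was 10.1-fold higher on a high-fat diet in this fit. Each value of Fabp1 that rests on wild-type libraries is therefore given as a description with no test. Other genes were tested in all 4 genotypes. Cells were taken from intestinal crypts of C57BL6 mice and stained with a CD326 antibody, which marks epithelium, and with the viability dye DAPI. Cells of high GFP signal were sorted straight into TRI reagent, and polyadenylated RNA was read at the 3' end (3' digital gene expression). The 4 genotypes were Wildtype (WT), Ppard-fl/fl (PparD), Ppara-null (PparA) and both alleles together (PparDA), each on a control diet or a high-fat diet, with 4 libraries in each of the 8 groups. The deposited design text calls the mutants knockouts. The GFP reporter, any Cre and the cells it acts in, the length of the diet, the age of the mice and whether each library is a separate animal were not stated in the labels or the design text. If libraries of a group share animals, a p-value measures only the spread between those samples, which may be technical.

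Fatty acid binding proteins are small cytosolic carriers that hold long-chain fatty acids in a barrel-shaped pocket and move them between membranes, enzymes and the nucleus. Fabp1 is abundant in hepatocytes and in absorptive enterocytes of the small intestine, where it binds dietary fatty acids and takes part in making the vesicles that carry chylomicrons. Peroxisome proliferator-activated receptors (PPARs) are nuclear receptors for fatty acids, they pair with a retinoid X receptor on DNA, and Fabp1 is a textbook target of theirs.

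The gene lies at chr6:71199827-71205023 on the plus strand of mm10, spans 5197 bases in 4 exons, and overlaps no other annotated gene. Its last exon, exon 4, runs from 71204904 to 71205023, and the 3' untranslated part begins at 71204952. PPAR and retinoid X receptor pairs bind a direct repeat spaced by 1 base (DR1), so the promoter was read for that motif. The RefSeq window (GRCm38.p6, the assembly called mm10) covers chr6:71199629-71199928, which is 250 bases before and 50 after a start at 71199879. GENCODE places the start 52 bases earlier. The 198 bases of chr6:71199629-71199826, plus strand, which stop short of the earlier start, are printed to show where the only DR1 match lies, in capitals.

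Fabp1 promoter: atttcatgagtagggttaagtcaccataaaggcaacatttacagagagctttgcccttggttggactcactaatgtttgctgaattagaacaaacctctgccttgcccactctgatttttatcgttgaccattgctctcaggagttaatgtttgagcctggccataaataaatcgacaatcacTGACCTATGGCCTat

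The motif searched was AGGTCANAGGTCA on both strands, with at most 1 mismatch over its 12 fixed letters. The match at chr6:71199812-71199824 reads AGGCCATAGGTCA on the minus strand, has 1 mismatch, and sits 67 to 55 bases before the RefSeq start, or 15 to 3 bases before the GENCODE start. A match of this quality was found in 182 of 32851 promoter windows of 300 bases (0.554%), and a match with no mismatch in 13 (0.0396%). The letters TATAAA stand further along the window at chr6:71199849-71199854, 30 to 25 bases before the RefSeq start, and occur on either strand in 13.6% of windows. Among 27 other PPAR target genes with a window, 0 held a DR1 match, and among the 8 genes of the fatty acid binding protein family with a window Fabp1 was the only one. These matches are letters in a window and say nothing about binding in these cells.

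Library totals ran from 612672 to 724155 counts and 11683 to 12212 genes had at least 1 count. Fabp1 itself had 20 to 1460 counts in a library, 13192 in all, or 0.00321 to 0.207% of a library. Levels are given as CPM, counts per 1e+06 counts of a library scaled by TMM factors. The library numbers in the column names fall into 4 runs of 8, and each run holds every group once. In runs 1 and 3 Ddx3y, a gene of the Y chromosome, was at 0, and Xist, the RNA of the inactive X chromosome, was at 466 to 931 CPM. Runs 2 and 4 had Xist at 0 to 9.72 CPM and Ddx3y at 14.3 to 38.9 CPM. Ppara never had more than 5 counts in a library and Ppard never more than 7, too few to check the genotype labels from these counts.

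In WT cells on the control diet Fabp1 stood at 162, 144, 153 and 97.1 CPM in runs 1 to 4. On the high-fat diet it stood at 1227, 2158, 602.5 and 1635 CPM. The lowest high-fat library was above the highest control library, and the group means were 139 ± 28.9 and 1406 ± 657 CPM (SD, n = 4 each). WT on the control diet had the lowest mean of the 8 groups and WT on the high-fat diet the highest. Within runs the high-fat library was higher by 2.90, 3.87, 1.96 and 4.03 on the log2 scale, with a mean of 3.19 ± 0.96 (SD, n = 4). The fitted difference was 3.33 ± 0.64 (log2, SE). Between 0 and 10 genes were called in this comparison when 1 library was left out, while the fitted Fabp1 difference stayed between 3.06 and 3.59. With every library, edgeR called 6 of 5872 genes at an adjusted p under 0.05 (0.102%).

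In PparD cells Fabp1 stood at 151, 175, 293 and 144 CPM on the control diet and at 585, 566.5, 627 and 397 CPM on the high-fat diet. These groups did not overlap either, and their means were 191 ± 69.7 and 544 ± 101 CPM (SD, n = 4 each). The difference within runs was 1.93, 1.68, 1.09 and 1.45 (log2), a mean of 1.54 ± 0.36 with the high-fat library above in 4 of 4 runs. The edgeR model of all 32 libraries gave 1.51 ± 0.61 (SE) and an adjusted p of 0.906 (0.0184 before Benjamini-Hochberg adjustment). In that comparison 5 genes (0.0851%) were called. The exact permutation test of the 8 values gave p = 0.0286, the smallest that 4 against 4 allows, or 0.257 adjusted over 9 such comparisons. When only the 8 PparD libraries entered the edgeR fit, with a spread, gene filter and scaling of their own, the difference was 1.51 with an adjusted p of 0.00469.

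**Figure D1:**
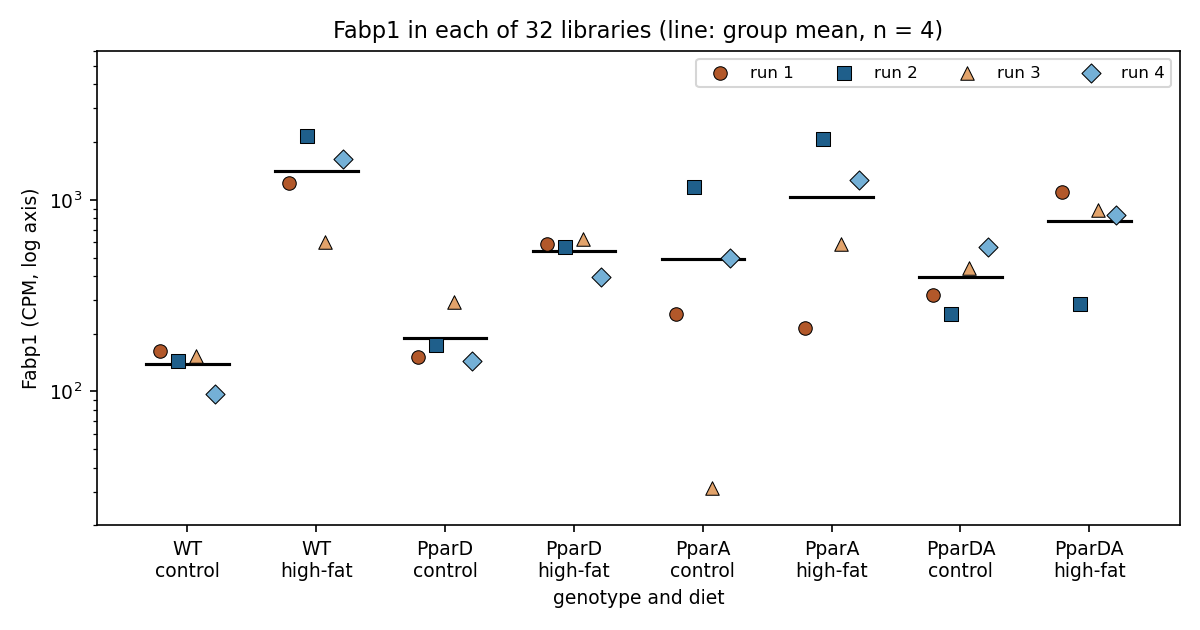
Fabp1 level (CPM, log axis) in each of 32 libraries by genotype and diet, with 1 symbol per run of library numbers and a line at the mean of each group of 4. The WT and PparD groups do not overlap between diets, while PparA libraries spread from 31.3 to 2069 CPM with runs 2 and 4 on top within each diet.

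PparA cells varied most. On the control diet Fabp1 stood at 253, 1171, 31.3 and 498 CPM, a 37.4-fold span within 1 group, and on the high-fat diet at 215, 2069, 585 and 1265 CPM. The groups overlapped, with means of 488 ± 493 and 1033 ± 816 CPM (SD, n = 4 each). Within runs the differences were -0.23, 0.82, 4.10 and 1.34 (log2), so the high-fat library was above in 3 of 4 runs. The 4.10 of run 3 rests on a control library with 20 counts. The fitted difference was 1.08 ± 0.59 (SE) with an edgeR adjusted p of 0.903, where 8 genes (0.136%) were called. It was 0.50 without the run 2 high-fat library, 0.70 without the run 3 control library and 1.995 without the run 2 control library.

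In PparDA cells Fabp1 stood at 319.8, 254, 443 and 569 CPM on the control diet and at 1095, 286, 887 and 828 CPM on the high-fat diet. Their means were 396 ± 139 and 774 ± 345 CPM (SD, n = 4 each), and the groups overlapped through the run 2 library on the high-fat diet. The high-fat library was above in 4 of 4 runs, by 1.77, 0.17, 0.997 and 0.54 (log2). The fitted difference was 0.97 ± 0.59 (SE), with an edgeR adjusted p of 0.671 and 2 genes called (0.0341%). The exact permutation test gave p = 0.286 for PparA and 0.143 for PparDA.

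**Figure D2:**
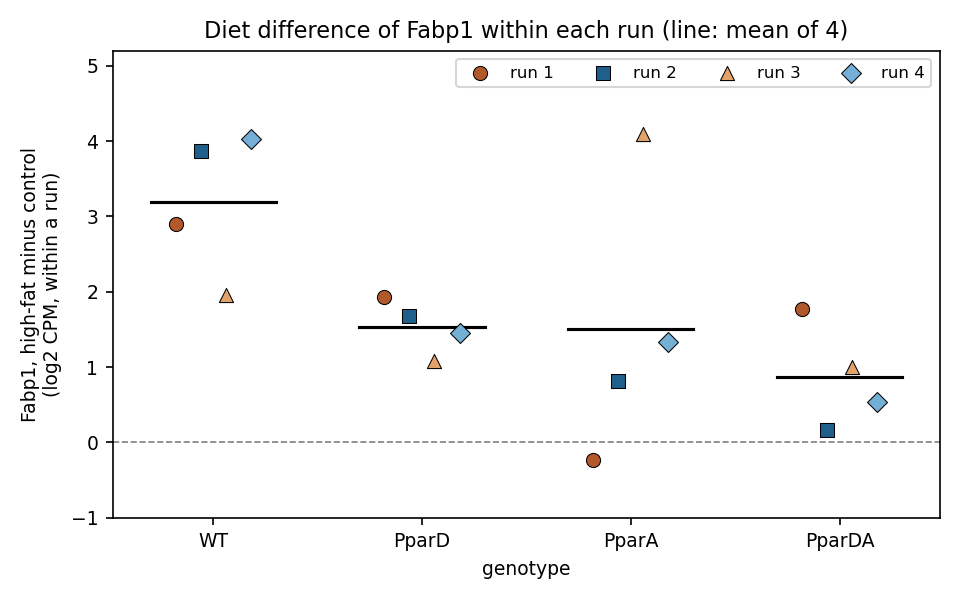
Fabp1 difference between the high-fat and the control library of the same run (log2 CPM) in each genotype, with a line at the mean of 4 runs. The 4 WT runs lie between 1.96 and 4.03, the PparD runs between 1.09 and 1.93, and the PparA runs between -0.23 and 4.10.

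The diet differences of the mutants were set against that of WT as a description only, since WT is taken to have chosen the gene. They were smaller by 1.82 ± 0.85 in PparD, 2.25 ± 0.84 in PparA and 2.37 ± 0.85 in PparDA (log2, SE). On the control diet Fabp1 was above WT by 0.45 ± 0.62 in PparD, 1.81 ± 0.62 in PparA and 1.51 ± 0.62 in PparDA. On the high-fat diet it was below WT by 1.37 ± 0.59 in PparD, 0.44 ± 0.58 in PparA and 0.86 ± 0.58 in PparDA. These comparisons share the WT libraries. Every PparDA control library, at 254 to 569 CPM, was above every WT control library, at 97.1 to 162 CPM.

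Among the mutants, which are taken not to have chosen the gene, no comparison of Fabp1 passed the edgeR test. Their diet differences differed from each other by -0.55 ± 0.83 (PparDA minus PparD, 95% interval -2.25 to 1.16), -0.11 ± 0.82 (PparDA minus PparA, -1.80 to 1.57) and -0.43 ± 0.83 (PparA minus PparD, -2.13 to 1.27). The edgeR adjusted p was 0.997, 0.987 and 0.984, in comparisons that called 0.0341, 0.136 and 0.153% of genes. The intervals are wide enough to hold differences of more than 2-fold either way. On the high-fat diet PparDA minus PparD was 0.51 ± 0.58 (edgeR adjusted p = 0.801, 1.58% of genes called). PparDA minus PparA was -0.42 ± 0.58 (edgeR adjusted p = 0.851, 0.272% called), and PparA minus PparD was 0.92 ± 0.58 (0.506, 1.57% called).

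On the control diet PparDA minus PparD was 1.05 ± 0.60 (edgeR adjusted p = 0.567, 1.19% called) and PparA minus PparD was 1.36 ± 0.61 (0.571, 0.715% called). PparDA minus PparA was -0.30 ± 0.59 (0.98, 0.136% called). This last difference has no settled direction: on the mean log2 CPM of libraries it was 0.51, and without the run 2 PparA control library, at 1171 CPM, the fit gave 0.61. Within runs 1 and 3 alone the control-diet difference of PparA minus PparD was -0.64, and within runs 2 and 4 it was 2.38. The runs were split in this way after the Fabp1 values had been seen, so both values are a description. In the order of the 8 group means, only PparDA control and PparD control differed from their neighbour by more than the larger SD (a gap of 205.6 against 139 CPM), and the libraries of every neighbouring pair overlapped.

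Fabp1 varied more between libraries of a group than most genes did. In the fit its biological coefficient of variation was 56.9%, against 21.7% for all genes together, at percentile 97 of the genes tested.

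In PparA the runs split the libraries. This split was picked after the Fabp1 values had been seen, so it is described for Fabp1 with no test. Under the control diet Fabp1 stood at 253 and 31.3 CPM in runs 1 and 3 and at 1171 and 498 CPM in runs 2 and 4. Under the high-fat diet it stood at 215 and 585 CPM and at 2069 and 1265 CPM. Within each diet runs 2 and 4 were above runs 1 and 3. With diet kept in the model, runs 2 and 4 were 4.90-fold higher, 2.29 ± 0.45 on the log2 scale (SE). The same difference was 0.42 ± 0.45 in WT, -0.40 ± 0.44 in PparD and -0.37 ± 0.43 in PparDA. Both Xist and Ddx3y mark the same split of runs in all 4 genotypes, so a difference in sex cannot be told apart from the runs. Each group of 4 libraries pools both pairs of runs, and the reported fit has no term for them. The part of sex in the result was not tested. Over all genes edgeR called 270 (4.6%) between the PparA runs, and the p-values of genes that vary with Fabp1 take no account of how the split was picked.

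Enterocyte markers were higher in the same 4 PparA libraries, runs 2 and 4. Of 21 tested markers 19 were called higher in runs 2 and 4, with a median of 2.67 (log2) beside -0.01 over all genes, where 3.08% of genes were called higher. The list holds 28 genes, all with counts, and Fabp1 is not among them. Their summed level was 1457 to 1757 CPM in the 4 PparA libraries of runs 1 and 3 and 3070 to 5755 CPM in the 4 of runs 2 and 4, without overlap. They did not follow Fabp1 between the diets of run 3, where Fabp1 stood at 31.3 CPM on the control diet and 585 CPM on the high-fat diet beside marker sums of 1584 and 1457 CPM. Apoa4, an apolipoprotein of chylomicrons, was 5.47 ± 0.65 higher (log2, SE). Alpi, the alkaline phosphatase of the brush border, was 5.28 ± 0.63 higher and Sis, the sucrase-isomaltase of the brush border, 4.51 ± 0.51 higher. These genes vary with Fabp1 within groups and were picked after they were seen, so they are described with no test. Of 15 tested genes of triglyceride and chylomicron assembly 9 were called higher in the same libraries. Among the 9, Mttp, Apob, Apoa1, Apoa4 and Apoc3 are also in the enterocyte list, so the 2 counts are not independent. Neither count takes account of how the split of runs was picked.

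In the list of PPAR targets 0 of 24 tested members were called by edgeR between these libraries, beside 4.6% of all genes. Their median was -0.14, and their summed level was 2062 to 5041 CPM in runs 1 and 3 against 2196 to 4019 CPM in runs 2 and 4. The lowest and the highest of these sums, 2062 and 5041 CPM, were those of the control and the high-fat library of run 3. Of 20 tested stem cell markers 0 were called, with a median of 0.00. Of 17 tested Paneth cell markers 8 were called higher, and their sum was 4177 to 10470 CPM against 16520 to 39110 CPM. The part of other cell types in the Fabp1 difference was not tested, and in these bulk samples fewer cells of a type and less RNA per cell cannot be told apart.

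**Figure D3:**
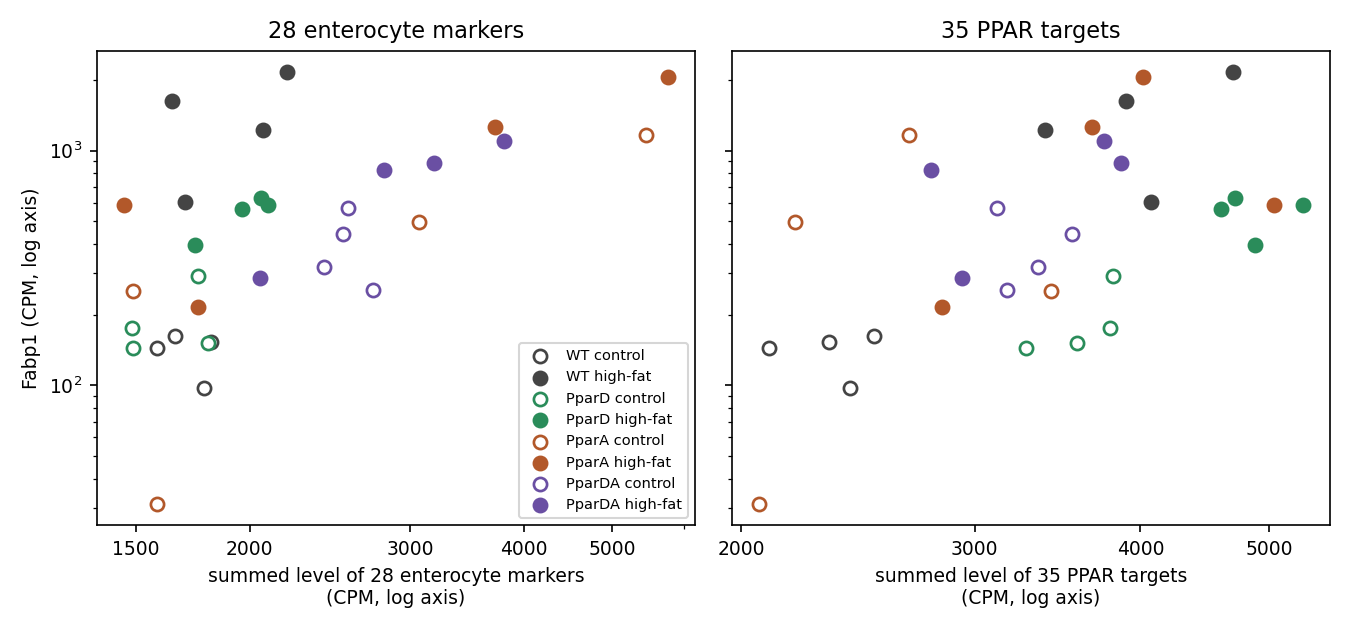
Fabp1 (CPM, log axis) against the summed level of 28 enterocyte markers (left) and of 35 PPAR targets (right) in CPM on log axes, 1 point per library, open for control and filled for high-fat. In the left panel WT libraries differ between diets in Fabp1 while their marker sums stay between 1581 and 2201 CPM, and 4 PparA libraries lie at 3070 CPM or more.

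Across diets in WT, where Fabp1 differed most, no tested enterocyte marker was called, beside 0.102% of all genes. A count of 0 among 21 markers is near that share. The summed level of the enterocyte markers was 1708 ± 108 CPM on the control diet and 1903 ± 274 CPM on the high-fat diet (SD, n = 4 each), and the libraries overlapped. Of 21 tested markers edgeR called 0, with 1 at an unadjusted p under 0.05 (7.66% of all genes) and 0 by DESeq2, and their median was 0.02 beside 0.00 over all genes. In PparD the sums were 1634 ± 169 and 1966 ± 158 CPM, with a median of 0.21. On the control diet the PparDA sums, at 2414 to 2730 CPM, lay above all WT control sums, at 1581 to 1812 CPM, as the Fabp1 values did. Immune cell markers summed to a mean of 31.5 to 64.4 CPM in the 8 groups and stromal, endothelial and red cell markers to 10.2 to 13.96 CPM. Of the listed stem cell markers, Olfm4 stood at 7080 to 13020 CPM and Lgr5 at 28.01 to 64.3 CPM over the 32 libraries. The labels do not say which gene the GFP of the sorted cells reports. Markers of other secretory crypt cells were high: the Paneth sum had group means of 6903 to 23400 CPM and the goblet sum of 2218 to 5574 CPM. From control to high-fat WT libraries the Paneth sum was 9143 ± 4448 and 23270 ± 16350 CPM and the goblet sum 3749 ± 1418 and 5399 ± 1633 CPM (SD, n = 4 each). All 17 tested Paneth markers were higher in WT, with a median of 1.47 (log2). EdgeR called 0 of them, and 8 had an unadjusted p under 0.05, beside 7.66% of all genes. All 9 tested goblet markers were higher, with a median of 0.61, 0 called and 1 at that unadjusted p. The part of these cells in the Fabp1 difference was not tested.

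Few of the rest of the fatty acid binding protein family had enough counts to be tested. Of 16 listed members 15 were matched, 8 had counts and 7 were listed at 0 (Fabp4, Fabp7, Fabp9, Fabp12, Pmp2, Crabp1 and Crabp2). Beside Fabp1, 5 were tested, and edgeR called 0 in every diet comparison, with 1 at an unadjusted p under 0.05 in WT, PparD and PparA each, 0 in PparDA, and 0 by DESeq2 and limma. Over all genes edgeR called 0.102, 0.0851, 0.136 and 0.0341% in WT, PparD, PparA and PparDA, so 0 of 5 was near that share. The shares of all genes with an unadjusted p under 0.05 were 7.66, 4.99, 5.79 and 8.79%. Fabp2, the intestinal form and the other carrier of absorptive cells, stood at 468 ± 88.8 and 727 ± 158 CPM in WT and at 450.2 ± 95.9 and 753 ± 41.4 CPM in PparD (SD, n = 4 each). Its fitted diet differences were 0.63 ± 0.24 in WT, 0.74 ± 0.24 in PparD, 0.43 ± 0.24 in PparA and 0.32 ± 0.24 in PparDA (edgeR adjusted p from 0.533 to 0.903). The Fabp2 groups did not overlap between diets in WT or PparD, and overlapped in PparA and PparDA.

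Rbp2, which carries retinol in enterocytes, had diet differences of 0.92 ± 0.93, 1.17 ± 1.02, 1.27 ± 0.63 and 0.47 ± 0.63 in WT, PparD, PparA and PparDA (log2, SE). Fabp6, the bile acid carrier of the ileum, had 1.095 ± 1.77, 0.44 ± 1.61, 2.22 ± 0.86 and 0.80 ± 0.92. In the PparA runs both were higher in runs 2 and 4, Rbp2 by 2.80 ± 0.48 and Fabp6 by 4.36 ± 0.86. That split was picked on Fabp1, so these values are a description. Fabp5, the epidermal form, had 323 counts in all and Rbp7, a retinol carrier, 1135, and neither passed a diet test. Fabp3, the heart form, had 9 counts in all libraries together.

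Of the PPAR targets, 5 rose on the high-fat diet in WT. Of 35 listed genes other than Fabp1, 24 were tested, and edgeR called 5 higher and 0 lower in WT, beside 0.102% of all genes. Before adjustment 15 passed at 0.05, beside 7.66% of all genes. The median of the list was 0.64 (log2), against 0.00 over all genes. Among the 5 were Acaa2, Acadvl, Ech1 and Eci2, enzymes of fatty acid oxidation, higher by 0.67 to 1.09 (log2, edgeR adjusted p from 0.015 to 0.0398). The count rests on single libraries: it fell to 0 without the run 1 or run 3 WT control library or without the run 2 or run 4 WT high-fat library. It was 5 by DESeq2, 2 by limma and 2 by edgeR when only the WT libraries were fitted. In runs 1 and 3 alone it was 0, and in runs 2 and 4 alone 1.

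In the mutants edgeR called 0 of the 24 targets on the diet, beside 0.0851, 0.136 and 0.0341% of all genes in PparD, PparA and PparDA. At an unadjusted p under 0.05 there were 11 in PparD, 10 in PparA and 1 in PparDA. The shares of all genes at that p were 4.99, 5.79 and 8.79%, so the 1 of 24 in PparDA was no more than the background. DESeq2 and limma each called 1 in PparA and 0 in PparD and PparDA. Their medians were 0.39 in PparD, 0.43 in PparA and -0.01 in PparDA, with 20, 21 and 10 of 24 above 0. In PparDA the Fabp1 difference of 0.97 was above that of each of the 24 targets, the highest of which was 0.54 (Acadl, a long-chain acyl-CoA dehydrogenase).

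**Figure D4:**
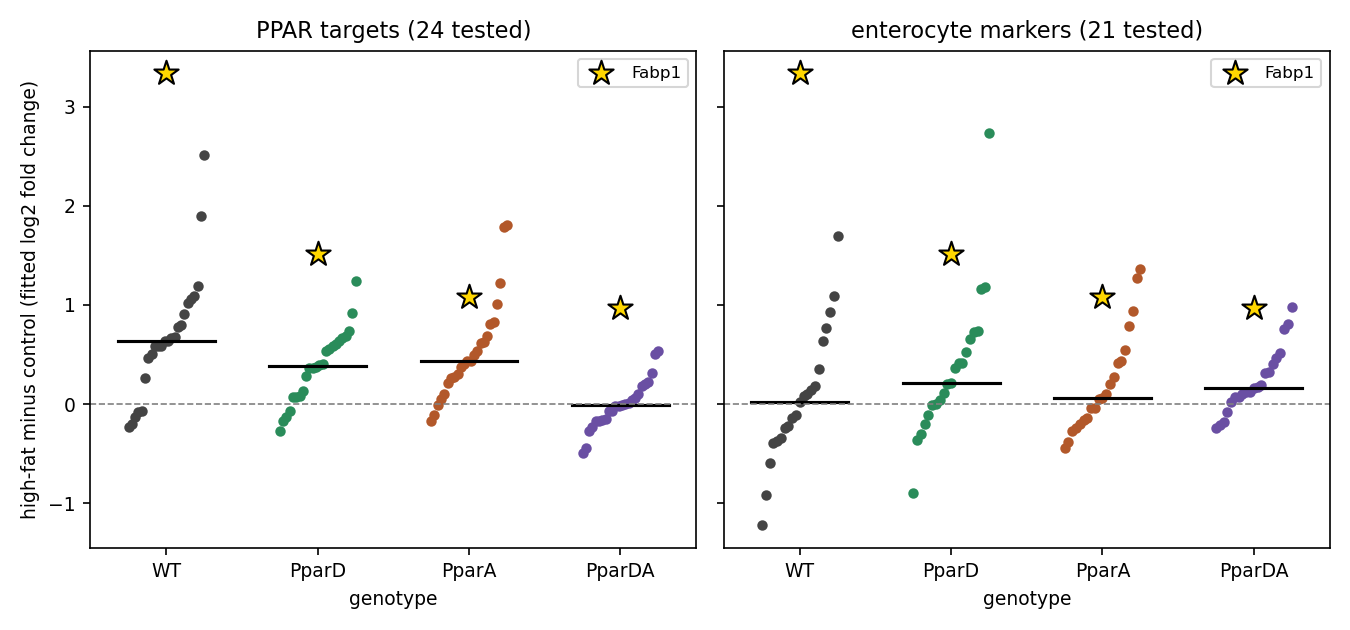
Fitted diet difference (high-fat minus control, log2) of the 24 tested PPAR targets (left) and the 21 tested enterocyte markers (right) in each genotype, 1 point per gene, with a line at the list's median and a star for Fabp1. The PPAR target medians are 0.64, 0.39, 0.43 and -0.01 from WT to PparDA, and the Fabp1 star lies at 3.33, 1.51, 1.08 and 0.97.

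The receptors and their partners were sparse. Of 15 listed, 14 had counts and 3 were tested: Ppargc1a, a coactivator, and Ncor1 and Hdac3, parts of a corepressor complex. None of the 3 was called by edgeR, by DESeq2 or at an unadjusted p under 0.05 in any diet comparison. Pparg had at most 6 counts in a library, Rxra at most 8, and Rxrg was listed at 0. Of 22 tested genes of mitochondrial fatty acid oxidation, 4 were called higher in WT (0.102% of all genes), the same 4 enzymes named above, and 0 by edgeR in each mutant. At an unadjusted p under 0.05 there were 10 in PparD, 9 in PparA and 2 in PparDA, against 4.99, 5.79 and 8.79% of all genes. Of 8 tested genes of fatty acid uptake and activation and 10 transcription factors of the intestinal epithelium, edgeR and DESeq2 called 0 in all 4 diet comparisons, with at most 1 of each list at an unadjusted p under 0.05. These counts of 0 are near the 0.0341 to 0.136% of all genes that edgeR called.

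The genes whose pattern was most like that of Fabp1 were sought over log2 CPM of all 32 libraries, among 5418 named genes with a median correlation of -0.008 and a 95th percentile of 0.372. The 10 highest were Fabp2 (Pearson r 0.711), Rbp2 (0.680), Cox7a1 (0.666), Zg16 (0.663), Apoa4 (0.659), Guca2b (0.657), Piga (0.652), Ech1 (0.643), Krt20 (0.640) and Apoc2 (0.637). These libraries share groups and runs, so the values are a description. Ech1 was the only one of the 10 that was also among the PPAR targets called in WT. By Spearman's rho 9 of these 10 were again in the top 10, while over the means of the 8 groups 1 was, Fabp2.

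With each group's mean taken out, which leaves the variation among libraries of 1 genotype and diet, the order changed and 3 of the 10 stayed. Apoa1, the main protein of high-density lipoprotein, came first (r 0.854), then Rbp2 (0.846), Slc46a1, the intestinal folate transporter (0.800), Spink1 (0.799), Guca2b, which encodes uroguanylin (0.797), and Krt20, a keratin of differentiated epithelium (0.789). The summed enterocyte markers had an r of 0.604 with Fabp1 over 32 libraries and 0.763 within groups, while the summed PPAR targets had 0.553 and 0.398. Stem cell markers had -0.085 and -0.074. The enterocyte sum did not stand alone. Genes of the proximal small intestine had 0.743 and 0.768, those of the distal small intestine 0.617 and 0.81. The rest of the fatty acid binding protein family had 0.742 and 0.594, and Paneth cell markers 0.608 and 0.43. Triglyceride and chylomicron assembly had 0.553 and 0.813. Some of these lists share genes with the enterocyte list. Fabp2 is in the family, proximal, PPAR target and enterocyte lists, so these values are not independent of its own r. In WT control libraries its mean was 468 CPM. The mean sums there were 528 CPM (family), 737 CPM (proximal), 1708 CPM (enterocyte) and 2341 CPM (PPAR targets). Fabp2 fell from 0.711 over all libraries to 0.520 within groups, and Ech1 from 0.643 to 0.245.

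The neighbours of Fabp1 on chromosome 6 were mostly silent here. Smyd1, 8917 bases after it, Tex37 and Foxi3 were at 0 counts, Cd8b1 had 2 and Thnsl2, 55388 bases before it, had 96 and was not tested. Krcc1, 66654 bases after Fabp1, was tested and stood at 27.9 ± 3.08 and 40.5 ± 6.06 CPM in WT on the control and high-fat diet (SD, n = 4 each). Its difference of 0.54 ± 0.20 did not pass (edgeR adjusted p = 0.533), and its r with Fabp1 was 0.369.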

How the data were processed

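The authors deposited expected counts per gene and library, rounded to whole numbers, and log2(CPM + 1) values of the same libraries. Per the submitters' processing notes the tools included R 4.0.2, Salmon 1.1.0 and edgeR 3.30.2, and the build was mm10, with no roles given. Here genes were kept by filterByExpr (minimum count 10, minimum total 15), scaled by TMM and fitted with edgeR 4.0.16 (glmQLFit, glmQLFTest) in R 4.3.3, with 1 coefficient for each of 8 groups. Tests were two-sided, adjusted by Benjamini-Hochberg over 5872 genes per comparison, and called under 0.05. An SE is the log2 difference over the square root of F. Depth of 612672 to 724155 counts limits precision for genes with few counts, and no use of molecular identifiers is given. Columns gave a group and a library number but no replicate number. Symbols came from GENCODE M21 (54096 of 54418 identifiers matched), and promoters from RefSeq. The gene and the lists were chosen with earlier results of these data known. Named genes were Fabp1, its 10 closest genes by each correlation, its neighbours, the family and receptors with counts, called members of the other lists and otherwise those with the smallest p in WT. Acadl and the Apoa4, Alpi, Sis, Lgr5 and Olfm4 values were picked after they were seen. DESeq2 1.42.0, limma 3.58.1 on the deposited log2 values, other scaling and filters, run splits and left-out libraries were alternatives. The fit was tested on simulated data. Some members of the lists are counted but not reported here by name.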

Additional observations from a re-analysis of the deposited data

Results flagged for a closer look

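The summed Paneth cell markers had 1 library far from the other 3 in a pair of control groups, both times the run 4 library. It stood at 15770 CPM in WT, against 6359 to 7613 CPM in the others, and at 16940 CPM in PparD, against 2889 to 4347 CPM. Fabp1 in those libraries was at 97.1 and 144 CPM, the lowest of its group in each case. Chance flags about 1 in 20 groups, and 32 groups of values were examined.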

How the results depend on the processing

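Values are log2 differences of Fabp1 or counts of genes called on the diet (WT 6, PparD 5, PparA 8, PparDA 2 as reported). With RLE scaling every Fabp1 difference kept its reported direction. Without a filter on low counts, 21299 genes entered, the fit's prior degrees of freedom became infinite, and Fabp1 was given a quasi-dispersion of 0.389 in place of its own 8.09. It then passed for the diet in PparD (1.51, adjusted p = 2.13e-21), PparA (1.07, 4.7e-11) and PparDA (0.96, 2.35e-08), for PparDA minus PparD (0.48 high-fat, 1.03 control) and for PparA minus PparD (0.91 high-fat, 1.35 control), and the counts were 99, 78, 106 and 59. With only the groups compared, PparD passed (1.51, edgeR adjusted p = 0.00469) and the counts were 3, 13, 5 and 0. The 24 mutant libraries alone gave 9 (PparD) and 1 (PparDA). A robust prior gave 11 (PparD) and 13 (PparA), DESeq2 gave 13 (PparD) and 6 (PparDA), and limma gave 2 (WT) and 12 (PparD). PparDA minus PparA on the control diet reversed to 0.53 with limma and to 0.51 in the permutation test.

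In runs 1 and 3 alone the WT diet difference was 2.52, and these comparisons reversed: PparDA minus PparA to 1.304 (high-fat) and 1.42 (control), PparA minus PparD to -0.60 (high-fat) and -0.64 (control), and their diet differences to 0.042. Against WT, PparD was -0.60 and PparDA 0.11 on the high-fat diet, PparA was -0.16 on the control diet, the diet differences were -1.08 (PparD) and -1.15 (PparDA), and the counts were 4 (PparA) and 0 (PparDA). In runs 2 and 4 alone the WT diet difference was 3.98, PparA minus PparD on the control diet passed at 2.38 (edgeR adjusted p = 0.0194), and PparD was -1.98 and PparDA -1.76 against WT on the high-fat diet. The diet differences against WT were there -2.39 (PparD) and -3.54 (PparDA), and the counts were 2 (WT), 2 (PparD) and 0 (PparDA). Each run pair leaves 2 libraries a group. The pairs were picked after the Fabp1 values had been seen, so a pass of Fabp1 within a pair is a description and not a test. The causes of these shifts were not tested.

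Leaving out 1 library at a time, the counts ranged from 0 to 10 (WT), 4 to 5 (PparD), 5 to 12 (PparA) and 1 to 3 (PparDA), and no Fabp1 comparison among the mutants passed. PparDA minus PparA ranged from -0.69 to 0.61 on the control diet, reversing without library 13, and from -0.77 to 0.16 on the high-fat diet, reversing without library 14. The diet difference of PparA minus PparD ranged from -1.02 to 0.48 and that of PparDA minus PparA from -1.04 to 0.46, the latter reversing to 0.08, 0.46, 0.15, 0.26 and 0.10 without libraries 5, 14, 16, 21 and 31. The PparA run difference stayed at 1.94 to 2.78.

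Columns carry no replicate number, so the run of library numbers served as the replicate block. Libraries of a run did deviate together: 31 of 32 correlated best with one of their own run, with a median correlation of 0.153 in a run and -0.071 between runs. The lowest same-run pair had -0.03, under the 0.1 asked of every pair, and the reported fit has no run term. With the block the diet counts were 14 (PparD), 18 (PparA) and 9 (PparDA), and Fabp1 in PparD was 1.51 (edgeR adjusted p = 0.692).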
